A study of Mus musculus with 6 samples.

Results

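The genes described here are 54 genes of DNA replication and the cell cycle, listed by symbol. They comprise 17 genes of replication licensing and the replication fork, 4 of nucleotide synthesis, 18 of mitosis, 8 cyclins and kinases of G1 and the G1/S transition, and 7 genes for E2F, pocket proteins and inhibitors. Every probe that the platform annotation names with one of these symbols was taken. Such a probe exists for 43 of the 54 genes, and 34 of them were tested, among 7322 tested genes in all. RNA came from the distal midgut of mouse embryos at E13.5. There were 3 *Id2*+/+ and 3 *Id2*-/- samples, each on an array of its own, hybridized in a single color. The labels call the embryos littermates and give neither a treatment nor a strain. *Id2*-/- embryos lack *Id2* in every cell, and the RNA is that of whole segments, in which epithelium, mesenchyme, muscle, nerve and vessels are mixed. Whether a sample is a single embryo is not stated, so p-values measure only the spread between these samples. The comparison asks which transcripts of the midgut differ at this stage when *Id2* is missing. *Id2* itself was not analysed here, and the genotype of each array is taken from its label.

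A cell that is to divide loads the MCM helicase onto replication origins with the loaders Cdc6 and Cdt1, copies its DNA in S phase, and then builds the spindle and separates its chromosomes in mitosis. D-type cyclins with Cdk4 or Cdk6, and cyclin E with Cdk2, phosphorylate the Rb family of pocket proteins, which releases E2F factors and turns on the genes of S phase. Genes of mitosis are turned on later, largely through promoter elements known as CHR and CCAAT boxes. The inhibitors p21 (*Cdkn1a*), p27 (*Cdkn1b*) and p18 (*Cdkn2c*) hold the kinases back. Id proteins bind E proteins, a class of basic helix-loop-helix factors that act through E-boxes and are known to turn on *Cdkn1a* in other cells, and Id proteins are known to favor the passage from G1 to S phase. In the embryonic midgut at this stage both the endoderm and the mesenchyme are dividing.

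Matches to E2F letters were most frequent in the promoters of licensing and fork genes, and matches to CHR and CCAAT letters in those of mitotic genes. RefSeq promoter windows (GRCm38.p6, 250 bases before to 50 after a start) were available for 43 of the 54 genes, with 50 windows in all, and were searched on both strands. The E2F letters were TTTCGCGC, TTTCCCGC and TTTGGCGC, which can overlap each other, the CHR was TTTGAA, the CCAAT box CCAAT and the E-box CANNTG. E2F letters stood in 9 of 18 windows of licensing and fork genes (50%), in 1 of 14 windows of mitotic genes (7.14%), in 0 of 4 windows of nucleotide synthesis genes and in 1.84% of all 32851 windows. The CHR stood in 9 of 14 mitotic windows (64.3%), in 2 of 18 licensing and fork windows (11.1%) and in 17.9% of all windows. In mitotic, licensing and fork, and all windows the shares were 85.7%, 55.6% and 37.4% for the CCAAT box and 64.3%, 50% and 72.3% for the E-box. These are matches of letters, not sites shown to be bound, and the shares were not tested against each other.

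The licensing genes *Mcm5* and *Mcm6*, which encode subunits of the helicase, and *Cdc6*, which encodes its loader, are shown for their E2F letters, given in capitals. In *Mcm5* and *Mcm6* a pair of matches on opposite strands overlaps. The stretches lie at chr8:75109339-75109398 (plus strand), chr1:128359766-128359825 (minus strand) and chr11:98907991-98908050 (plus strand), and each is written 5′ to 3′ on the strand of its gene.
Mcm5: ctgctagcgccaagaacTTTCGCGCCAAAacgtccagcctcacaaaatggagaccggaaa
Mcm6: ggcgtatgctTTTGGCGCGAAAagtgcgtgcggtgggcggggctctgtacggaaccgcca
Cdc6: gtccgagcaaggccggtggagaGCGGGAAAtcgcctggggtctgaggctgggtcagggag

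The mitotic genes *Cdc20*, which encodes an activator of the anaphase-promoting complex, *Top2a*, which encodes a topoisomerase that untangles chromosomes, and *Kif11*, which encodes a spindle motor, are shown for a CHR near the start with a CCAAT box before it. *Ccnb2*, which encodes a B-type cyclin, is shown for its 3 CCAAT boxes, which begin at positions -87, -54 and -21 from the start. Capitals mark CHR and CCAAT letters on either strand. The stretches lie at chr4:118437344-118437403 (minus strand), chr11:99024190-99024249 (minus strand), chr19:37376322-37376381 (plus strand) and chr9:70421555-70421654 (minus strand).
Cdc20: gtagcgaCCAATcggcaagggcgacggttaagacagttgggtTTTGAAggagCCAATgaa
Top2a: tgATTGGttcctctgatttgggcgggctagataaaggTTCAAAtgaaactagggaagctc
Kif11: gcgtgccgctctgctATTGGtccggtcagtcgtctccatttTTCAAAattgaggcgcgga
Ccnb2: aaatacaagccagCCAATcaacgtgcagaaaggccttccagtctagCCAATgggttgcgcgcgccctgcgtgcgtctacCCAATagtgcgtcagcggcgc

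*Cdkn1a*, the gene with the largest difference between the genotypes among the 34 tested genes of the set, is shown for an E-box (capitals) in the later of its 2 listed windows, at chr17:29093559-29093598 on the plus strand. Of the 50 windows of the cell cycle genes 54% hold an E-box, against 72.3% of all windows.
Cdkn1a: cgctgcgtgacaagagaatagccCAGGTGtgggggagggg

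**Figure D1:**
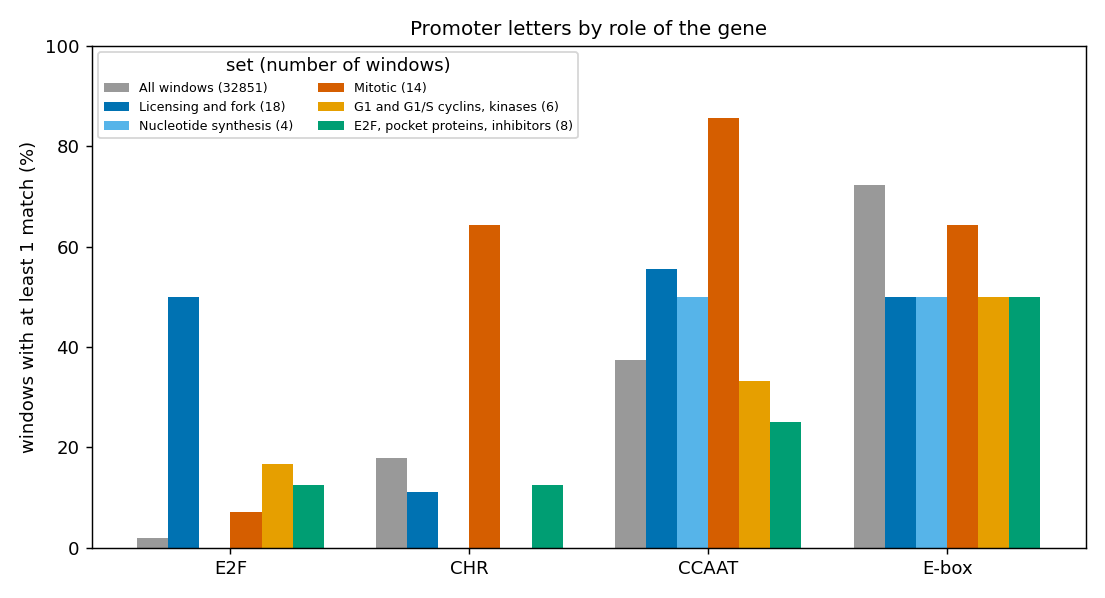
Share of RefSeq promoter windows (vertical axis, percent) that hold at least 1 match to the letters of each motif (horizontal axis), for all 32851 windows (gray) and for the windows of each role list (colors, with the number of windows in the legend). E2F letters reach 50% in the licensing and fork genes and the CHR 64.3% in the mitotic genes, against 1.84% and 17.9% of all windows.

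Each array was scaled by the authors to the median signal of its unflagged spots, and values below are log2 of that normalized signal, with differences given as *Id2*-/- minus *Id2*+/+. A probe counted as above background at a signal-to-noise score of at least 3 and was tested where this held on all 3 arrays of a genotype, which left 12741 probes. The arrays numbered 1 of both genotypes stood apart from the other 4. They correlated at 0.984 with each other and at 0.909 to 0.931 with the others, which correlated at 0.979 to 0.988 among themselves. Once the mean of the genotype was subtracted, arrays with the same number correlated at 0.84, 0.64 and 0.58. The 3 deviations of a genotype sum to 0, so the shift shared by the arrays numbered 1 enters all 3 correlations. They therefore do not show that the arrays numbered 2 or 3 belong together. The arrays are also compared by number as pairs 1, 2 and 3, a pairing that the labels do not state. The median difference of all tested probes was 0.35 in pair 1, -0.04 in pair 2 and -0.19 in pair 3, and a value given as relative has this median subtracted.

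None of the 34 tested genes passed the adjusted test between *Id2*-/- and *Id2*+/+ midgut, and most differences were small. In limma with Benjamini-Hochberg adjustment 0 of 34 passed, as did 0.0% of all 12741 probes. At an unadjusted p under 0.05 limma had 1 gene, *Cdkn1a*, against 1.84% of all probes (234). With the array number as a block limma called 0 of the 34 higher and 0 lower, against 1.06% and 1.12% of all probes. In means of the genotypes 1 gene, again *Cdkn1a*, lay at least 1.5-fold higher in *Id2*-/-, against 3.06% of all probes, and 0 lay that far lower, against 2.79%. RNA of a whole segment cannot tell fewer cells of a type from less RNA per cell, and this holds for every value below. The differences ran from -0.08 to 0.79 with a median of 0.13, beside a median of 0.04 over all tested probes. They were positive for 27 genes and negative for 7, and positive for 60.4% of all probes.

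The sign of that median followed the pair of arrays. In pair 1 all 34 genes had a positive difference, against 85.6% of all probes, with a median of 0.60. In pair 2 this held for 16, against 44.0%, with a median of -0.02. In pair 3 it held for 2, *Ccnd1* and *Cdkn1a*, against 25.6%, with a median of -0.22. Relative to all probes of the pair the medians were 0.25, 0.02 and -0.03. Without the arrays numbered 1 the median difference was -0.09, beside -0.11 for all probes, and 22 of the 34 genes turned from a positive to a negative difference, against 31.3% of all probes. The 5 that stayed positive were *Cdkn1a* (0.51), *Ccnd1* (0.43), *Plk1* (0.09), *Top2a* (0.07) and *Bub1b* (0.04). *Cdkn1a* and *Ccnd1* were the 2 genes with a positive difference in all 3 pairs, against 11.8% of all probes, and 0 genes were negative in all 3, against 5.64%.

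Relative to the median of all probes in each pair, 9 of the 34 genes were positive in all 3 pairs, against 14.7% of all probes. They were the mitotic genes *Top2a*, *Ccna2*, *Aurka*, *Plk1*, *Bub1b* and *Kif20a*, together with *Rrm2*, *Ccnd1* and *Cdkn1a*. *Lig1*, which encodes the DNA ligase that joins Okazaki fragments, was the 1 gene that was negative in all 3 pairs on this scale, against 14.9% of all probes. Several of these relative values were close to 0. In pair 3 that of *Kif20a*, which encodes a motor of cytokinesis, was 0.002, and that of *Rrm2* was 0.016. No test was made of these counts.

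**Figure D2:**
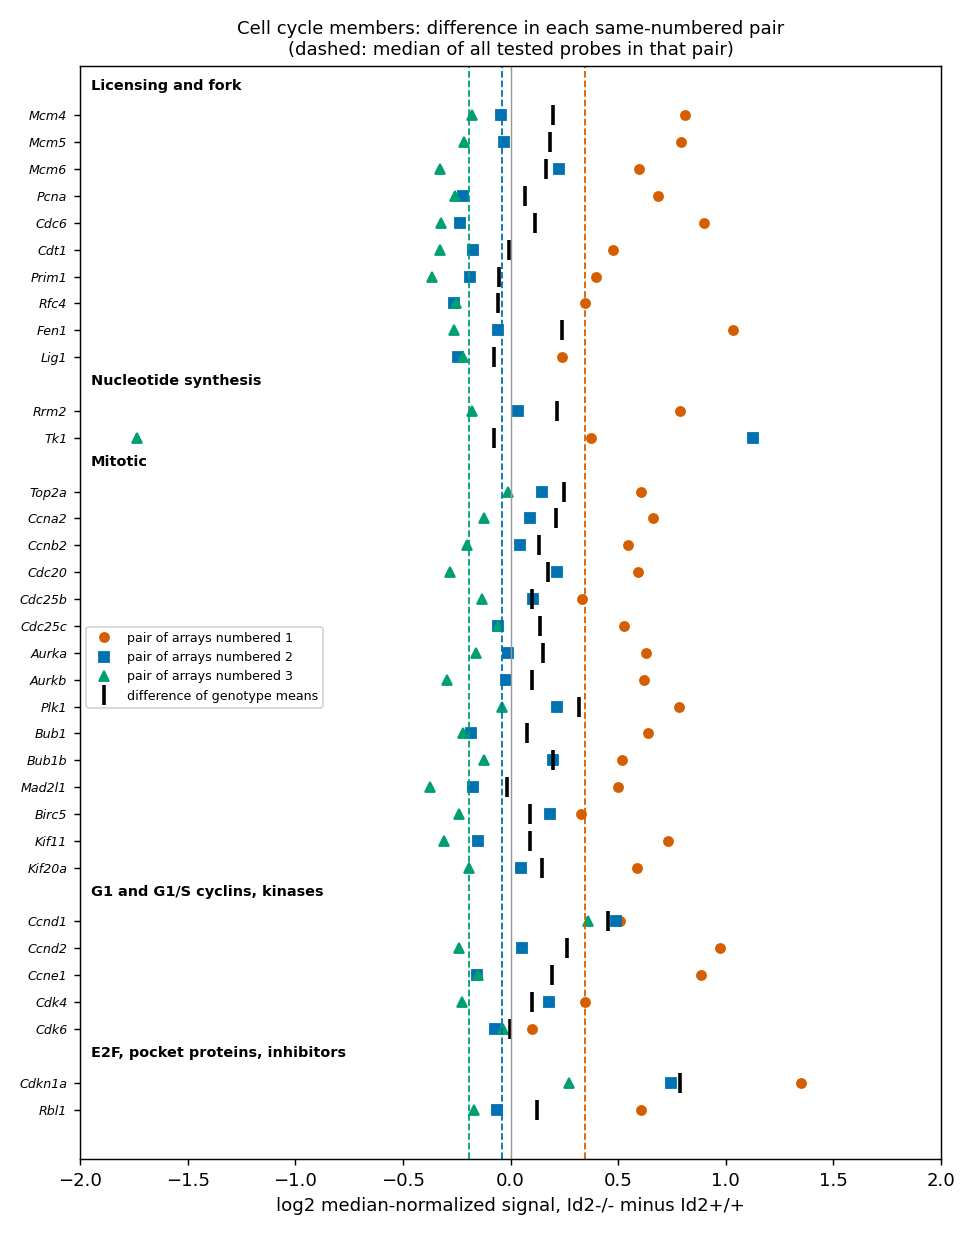
Difference in log2 median-normalized signal, *Id2*-/- minus *Id2*+/+ (horizontal axis), for the 34 tested genes, grouped by role, with a circle, square and triangle for the pairs of arrays numbered 1, 2 and 3, a black bar for the difference of genotype means and dashed lines for the median of all tested probes in each pair (0.35, -0.04 and -0.19). Circles lie right of 0 for all 34 genes, and triangles lie right of 0 only for *Ccnd1* and *Cdkn1a*.

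*Cdkn1a* encodes p21, an inhibitor of cyclin-dependent kinases that halts the cycle in G1. Its signal was 2.10, 1.81 and 2.43 on the *Id2*+/+ arrays numbered 1, 2 and 3 and 3.45, 2.55 and 2.70 on the *Id2*-/- arrays. All 3 *Id2*-/- arrays lay above all 3 *Id2*+/+ arrays, by a margin set by *Id2*-/- array 2 against *Id2*+/+ array 3. *Cdkn1a* was the 1 gene of the 34 whose genotypes did not overlap with *Id2*-/- higher, against 2.73% of all probes, and 0 did so with *Id2*-/- lower, against 1.29%. The difference was 0.79 (standard error 0.33), or 1.73-fold, and the pairs gave 1.35, 0.74 and 0.27. It did not pass the adjusted test (adjusted p = 1.0 in limma, and 0.133 with the block on array number, where all probes share a single variance). With quantile normalization or centring of the tested probes added to the block, the adjusted p of limma was 0.5 and 0.419. The smallest two-sided p that an exact permutation test of 3 against 3 arrays can give is 0.1. Without the arrays numbered 1 the difference of *Cdkn1a* was 0.51. Some globin and vessel markers were also more abundant on some *Id2*-/- arrays, as given further on, and their part in the value of *Cdkn1a* was not tested.

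Of the other inhibitors and the pocket proteins, *Rbl1*, which encodes p107, had a tested probe. Its signal was 3.22, 4.94 and 4.86 in *Id2*+/+ and 3.83, 4.88 and 4.69 in *Id2*-/- samples. The array numbered 1 was the lowest of each genotype, and the genotypes overlapped, with a difference of 0.12 (standard error 0.53). For *Cdkn1b* 0 *Id2*+/+ and 2 *Id2*-/- arrays were above background, for *Rbl2*, which encodes p130, 1 and 1, and for *Rb1* none, and these 3 genes were not tested. *E2f1* and *Cdkn2c* have no probe of that name here.

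*Ccnd1*, which encodes cyclin D1, the growth signal-dependent partner of Cdk4 and Cdk6, had a signal of 4.73, 5.25 and 5.43 in *Id2*+/+ and 5.24, 5.74 and 5.79 in *Id2*-/- samples. The *Id2*-/- array was the higher in each pair, by 0.51, 0.49 and 0.36. The genotypes overlapped all the same, because *Id2*-/- array 1 (5.24) lay below *Id2*+/+ arrays 2 and 3. The mean difference was 0.45 (standard error 0.29, adjusted p = 1.0 in limma), or 1.37-fold, and ranged from 0.25 to 0.63 when each array was left out in turn. *Ccnd2*, which encodes cyclin D2, had 6.61, 6.76 and 6.93 against 7.58, 6.81 and 6.69. Here the *Id2*-/- array numbered 1 alone lay above the *Id2*+/+ range, and the difference of 0.26 became -0.09 without the arrays numbered 1.

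*Ccne1*, which encodes cyclin E1, the partner of Cdk2 at the entry into S phase, had 4.65, 5.40 and 5.32 in *Id2*+/+ against 5.53, 5.25 and 5.17 in *Id2*-/- samples. Its pair differences of 0.89, -0.16 and -0.15 differed in sign. *Cdk6* was near the same signal on all arrays, with 1.21, 1.16 and 1.06 against 1.31, 1.09 and 1.02 and a difference of -0.001 (standard error 0.22). *Cdk4* differed by 0.10 (standard error 0.50), with pair differences of 0.34, 0.18 and -0.23. None of these 3 genes passed the adjusted test. Over the 5 tested cyclin and kinase genes of G1 and G1/S the median difference was 0.19, with medians of 0.51, 0.05 and -0.15 in the pairs. *Ccne2* and *Cdk2* have no probe of that name here, and *Ccnd3* was not tested.

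The 10 tested genes of licensing and the fork, of 17, all had a positive difference in pair 1, against 1 in pair 2 and 0 in pair 3. Their median difference was 0.09, with 6 positive and 4 negative, and the medians in the pairs were 0.64, -0.18 and -0.26 (relative 0.29, -0.14 and -0.07). *Mcm4*, a helicase subunit, had 7.03, 8.46 and 8.20 in *Id2*+/+ against 7.84, 8.41 and 8.02 in *Id2*-/- samples. *Mcm5*, another subunit, had 6.64, 7.52 and 7.51 against 7.43, 7.49 and 7.30. *Fen1*, which encodes the nuclease that trims Okazaki fragments, had 3.89, 4.33 and 4.36 against 4.92, 4.27 and 4.10. In all 3 genes the *Id2*+/+ array numbered 1 was the lowest of the 6, and in pairs 2 and 3 the *Id2*-/- array was the lower.

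The differences in means were 0.19 for *Mcm4* (standard error 0.41), 0.18 for *Mcm5* (0.31) and 0.24 for *Fen1* (0.30), and without the arrays numbered 1 they were -0.11, -0.12 and -0.16. *Pcna*, which encodes the sliding clamp of the DNA polymerases, had 8.39, 9.82 and 9.84 against 9.08, 9.60 and 9.58, a difference of 0.07 (standard error 0.43). *Rfc4*, which encodes a subunit of the clamp loader, had 5.64, 6.53 and 6.44 against 5.99, 6.26 and 6.19, a difference of -0.06 (standard error 0.30). In *Pcna* and *Rfc4*, too, the *Id2*+/+ array numbered 1 was the lowest of the 6. In *Mcm6*, a further helicase subunit, it was the highest of the *Id2*+/+ arrays, with 6.65, 6.12 and 6.48 against 7.24, 6.34 and 6.16. The other 5 tested genes, *Mcm6*, *Cdc6*, *Cdt1*, *Prim1* and *Lig1*, differed by -0.08 to 0.17, and *Mcm6* and *Cdc6* were negative without the arrays numbered 1. *Mcm2* and *Pola1* were not tested, and *Mcm3*, *Mcm7*, *Gins1*, *Gins2* and *Rfc3* have no probe of that name here.

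**Figure D3:**
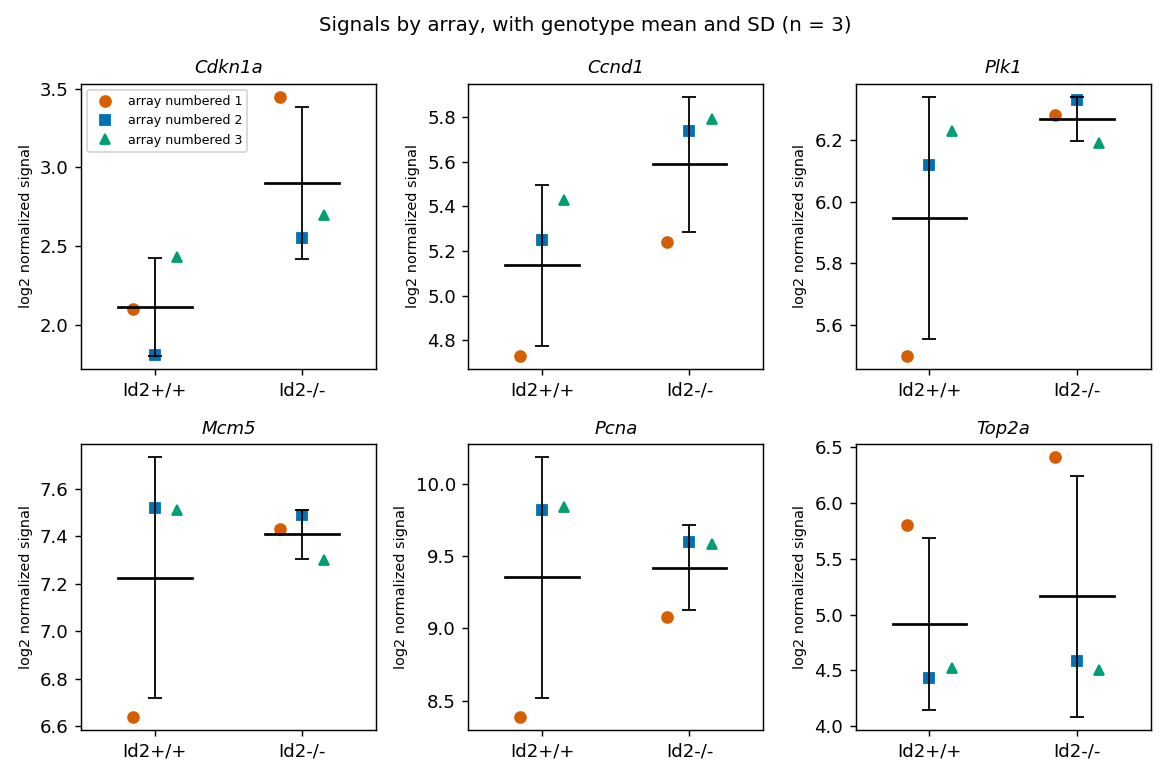
Log2 median-normalized signal (vertical axes, each on its own range) of *Cdkn1a*, *Ccnd1*, *Plk1*, *Mcm5*, *Pcna* and *Top2a* on the 3 *Id2*+/+ and 3 *Id2*-/- arrays, with a circle, square and triangle for arrays 1, 2 and 3. A horizontal bar marks each mean and an error bar its SD (n = 3). The 3 *Id2*-/- values of *Cdkn1a* (2.55 to 3.45) lie above all *Id2*+/+ values (1.81 to 2.43), and in the other 5 panels the genotypes overlap.

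Of the 4 genes of nucleotide synthesis 2 were tested. *Rrm2*, which encodes the small subunit of ribonucleotide reductase, had 5.78, 6.51 and 6.45 in *Id2*+/+ against 6.57, 6.55 and 6.27 in *Id2*-/- samples. Its difference was 0.22 (standard error 0.28), and the pairs gave 0.79, 0.04 and -0.18. *Tk1*, which encodes the thymidine kinase of S phase, had 2.28, 0.74 and 0.37 against 2.66, 1.87 and -1.37. The *Id2*-/- array numbered 3 was not above background for *Tk1*, and the difference of -0.08 has a standard error of 1.04. *Tyms* was above background on 1 *Id2*+/+ array and 0 *Id2*-/- arrays, and *Rrm1* on 1 and 2, so neither was tested.

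Of the 18 mitotic genes 15 were tested, and 14 had a positive and 1 a negative difference, where 60.4% of all probes were positive. Their median was 0.14, and -0.06 without the arrays numbered 1. The medians in the pairs were 0.59, 0.05 and -0.19 (relative 0.24, 0.09 and 0.002). All 15 were positive in pair 1, 9 in pair 2 and 0 in pair 3. *Plk1*, which encodes a kinase of mitotic entry and spindle assembly, had the largest difference in means of the 15, with 5.50, 6.12 and 6.23 in *Id2*+/+ against 6.28, 6.33 and 6.19 in *Id2*-/- samples. It differed by 0.32 (standard error 0.27, adjusted p = 1.0 in limma), and the *Id2*+/+ array numbered 1 was the value that lay apart.

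*Ccna2*, which encodes cyclin A2, had 6.09, 5.97 and 6.16 in *Id2*+/+ against 6.75, 6.07 and 6.03 in *Id2*-/- samples. *Bub1b*, which encodes a kinase-related protein of the spindle checkpoint, had 4.52, 4.40 and 4.52 against 5.04, 4.59 and 4.40. In *Ccna2* and *Bub1b* the *Id2*-/- array numbered 1 lay above the rest and the others overlapped. The differences were 0.21 (standard error 0.28) and 0.20 (0.26), and neither gene passed the adjusted test. *Top2a*, with the CHR and CCAAT letters shown above, had 5.80, 4.43 and 4.52 against 6.41, 4.58 and 4.50, so that both arrays numbered 1 were high and the difference was 0.25 (standard error 0.61). *Cdc20*, *Kif11* and *Ccnb2*, the other genes with a mitotic promoter shown, differed by 0.17, 0.09 and 0.13.

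*Mad2l1*, which encodes the checkpoint protein Mad2, had 2 tested probes, with differences of -0.02 and -0.07, and the brighter stands for the gene as the 1 negative value of the mitotic genes. The remaining 7 mitotic genes, among them the kinases *Aurka*, *Aurkb* and *Bub1*, the phosphatases *Cdc25b* and *Cdc25c*, *Birc5* and *Kif20a*, differed by 0.08 to 0.15. *Cdk1* was above background on no array and was not tested, and *Ccnb1* and *Mki67* have no probe of that name here.

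The S phase genes, namely the 12 tested genes of licensing, the fork and nucleotide synthesis, and the 15 mitotic genes were set against each other. The median of the S phase genes minus that of the mitotic genes was -0.05, and the SD of the same quantity over the 3 pairs was 0.11. In the pairs the S phase medians were 0.64, -0.12 and -0.26, beside 0.59, 0.05 and -0.19 for the mitotic genes. Without the arrays numbered 1 the quantity was -0.18, and it ran from -0.27 to 0.10 when each array was left out in turn. The value lay within the spread over pairs. It is made from the same 3 pairs as that SD, so this does not show that S phase and mitotic genes are alike. No p is given because the lists were chosen with results of these arrays known.

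Further genes of the same processes gave medians between those of all probes and of the genes above. Of 44 further S phase genes 31 were tested, with a median of 0.05, of which 22 were positive and 9 negative. Of 60 further mitotic genes 42 were tested, with a median of 0.09, of which 34 were positive and 8 negative. Of 37 further regulators of G1, E2F and cell cycle exit 24 were tested, with a median of 0.05, of which 15 were positive and 9 negative. Of all probes 60.4% were positive. With and without the block limma called 0 genes of these 3 lists. Of all probes it called 0.0% without the block, and 1.06% higher and 1.12% lower with it. In pairs 1, 2 and 3 the medians of the S phase list were 0.42, -0.06 and -0.25 and those of the mitotic list 0.51, -0.03 and -0.22.

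The largest difference in these lists was that of *Cdkn2a*, whose products p16 and p19Arf act upstream of Rb and p53. Its signal was -0.35, 0.69 and 0.53 in *Id2*+/+ and 0.73, 1.01 and 1.74 in *Id2*-/- samples. The genotypes did not overlap, by 0.73 on the lowest *Id2*-/- array against 0.69 on the highest *Id2*+/+ array. Such a lack of overlap with *Id2*-/- higher held for 2.73% of all probes. Signals of this size are near those of spots not above background, such as 0.48 for *Cdk1* on *Id2*-/- array 2. A probe could enter the test through 1 genotype alone, and which arrays of *Cdkn2a* were above background is not given here. *Cdkn2a* differed by 0.87 (standard error 0.39), with 1.09, 0.32 and 1.21 in the pairs. It did not pass the adjusted test (adjusted p = 1.0 in limma, and 0.0629 with the array number as a block, where all probes share a single variance). With quantile normalization or centring of the tested probes added, the block called 0 of all probes.

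*Mycn*, which encodes a growth-promoting factor of embryonic tissue, had 5.13, 5.85 and 5.76 in *Id2*+/+ against 5.47, 5.15 and 5.03 in *Id2*-/- samples. Its *Id2*-/- array was lower in pairs 2 and 3 and higher in pair 1, and the difference was -0.37 (standard error 0.29). *Btg2*, which encodes an antiproliferative protein, differed by 0.34 (standard error 0.37), with 0.67, 0.30 and 0.04 in the pairs. *Ttk*, which encodes a checkpoint kinase, had 1.78, 1.24 and 0.69 in *Id2*+/+ against 2.28, -0.43 and 0.03 in *Id2*-/- samples. Its difference was -0.61 (standard error 0.70), but 0.50 in pair 1. The signals on *Id2*-/- arrays 2 and 3 are of the size of spots not above background. *Tpx2*, which encodes a spindle assembly factor, differed by 0.27. *Incenp*, of the chromosomal passenger complex, differed by 0.20, *Orc1*, of the origin recognition complex, by 0.26, *Prim2*, of primase, by 0.21, and *Pold2*, of DNA polymerase delta, by 0.18. None of these passed the adjusted test.

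The shift between the arrays numbered 1 and the others is given as the signal of array 1 minus the mean of arrays 2 and 3. In both genotypes it exceeded the difference of the genotypes for 24 of the 34 genes. For 17 of these it had the same sign in both. These 2 counts were not made over all probes, so they do not show a trait particular to the cell cycle genes. *Lig1* had 5.33, 6.98 and 6.91 in *Id2*+/+ against 5.57, 6.73 and 6.69 in *Id2*-/- samples, a shift of -1.61 and -1.14. It was the 1 tested gene that was lower on array 1 by at least 1 in both genotypes, against 3.34% of all probes. The shift was -1.69 and -0.96 for *Rbl1* and -1.44 and -0.51 for *Pcna*. *Tk1*, *Top2a* and *Cdk4* were higher on array 1 by at least 1 in both genotypes, against 9.0% of all probes. Their shifts were 1.73 and 2.41, 1.33 and 1.87, and 1.08 and 1.44.

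By role, the median shift was -0.86 in *Id2*+/+ and -0.16 in *Id2*-/- samples for the licensing and fork genes, and -0.12 and 0.32 for the mitotic genes, beside -0.28 and 0.12 for all tested probes. The widest shifts were those of 3 untested genes. *Ccnd3*, which encodes cyclin D3, was at 5.38 and 5.67 on the arrays numbered 1 of *Id2*+/+ and *Id2*-/- and between -0.77 and 0.90 on the other 4. *Rrm1*, which encodes the large subunit of ribonucleotide reductase, was at 3.70 and 4.44 on the arrays numbered 1 and between -1.46 and 0.57 on the others. *Mcm2*, a helicase subunit, was at 3.21 and 3.64 against -0.84 to 1.27. These genes were above background on 3, 3 and 4 of the 6 arrays, so that the levels on the others are partly those of spots not above background. Neither the labels nor the files used here state what the arrays numbered 1 share.

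**Figure D4:**
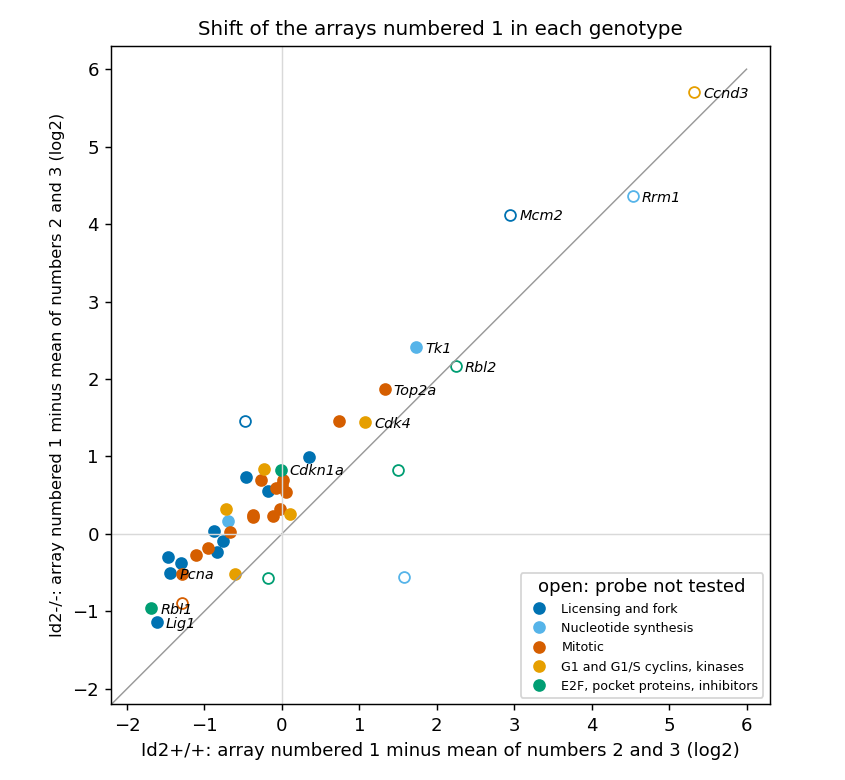
Log2 signal of the array numbered 1 minus the mean of the arrays numbered 2 and 3 in *Id2*+/+ (horizontal axis) and in *Id2*-/- samples (vertical axis), for 1 probe of each of the 43 cell cycle genes with a named probe, colored by role, with open circles for probes that were not tested and a diagonal line of equal shift. *Ccnd3*, *Rrm1* and *Mcm2* lie far to the upper right, with shifts of 5.32, 4.53 and 2.95 in *Id2*+/+ and 5.70, 4.36 and 4.12 in *Id2*-/- samples, and *Rbl1* and *Lig1* lie lowest on the left.

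Markers of several cell types of the segment also moved with the array number. The summed normalized signal of epithelial, mesenchymal, smooth muscle and macrophage markers was lowest on the array numbered 1 of each genotype. For neural, endothelial and erythroid markers this held only in *Id2*+/+ samples. The summed normalized signal of the 18 tested of 24 epithelial markers was 654, 1560 and 1820 on the *Id2*+/+ arrays and 916, 1010 and 1050 on the *Id2*-/- arrays. All 18 had a negative difference in means, with a median of -0.30 and medians of 0.47, -0.50 and -0.85 in the pairs, and 1, *Tjp3*, was lower in limma with the array number as a block (adjusted p = 0.00582), where 1.12% of all probes were lower and all share a single variance. *Tjp3* was not called once quantile normalization or centring of the tested probes was added to the block, which called 0 probes in all. The summed signal of the 15 tested of 22 mesenchymal markers ran from 3960 to 9210 in *Id2*+/+ and from 4840 to 8470 in *Id2*-/- samples, with a median difference of 0.04. The 5 tested erythroid markers had a median of 0.72 and a sum of 1240 to 1790 against 1500 to 2340. Their differences were unequal, with 0.88 for *Hba-x* and 0.72 for both *Hbb-bh1* and *Hbb-y*. *Hba-a1* and *Alas2* differed by only 0.016 and 0.041, and both were lower in *Id2*-/- in pairs 2 and 3. For 9 endothelial markers the median was 0.37, with a sum of 70.6 to 135 against 120 to 150. The medians were 0.16 for 8 smooth muscle, 0.02 for 10 neural and -0.11 for 7 macrophage markers. The part of the cell mixture in the values of the cell cycle genes was not tested.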

How the data were processed

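RNA was amplified and hybridized to Applied Biosystems mouse genome survey arrays, 3 per genotype. The deposited files give, per probe, a signal intensity, a signal-to-noise score made by the scanner software, a quality flag and an intensity that the authors divided by the array median (708.0 to 1010.4). The deposited series table holds the same values. The methods exclude spots with a flag under 5000; here a flag of 5000 or more was taken as bad, leaving 32189 of 33012 probes. A probe whose score reached 3 on all 3 arrays of a genotype was tested on log2 of the normalized intensity with limma 3.58.1 (lmFit, eBayes, R 4.3.3) and Benjamini-Hochberg adjustment at 0.05 over all 12741 probes, without a block; 11195 were above background on all 6 arrays. The number of arrays limits precision. Gene names come from the platform annotation (14411 probes with 1 symbol, 247 with several, 18354 with none), and a gene is its tested probe with the highest mean. Same-numbered arrays were compared as pairs, and the array number was used as a block, although the labels do not state a pairing. Their deviations correlated at 0.838, 0.644 and 0.579. The shift shared by the arrays numbered 1 enters all 3 values, so they do not show that the other arrays belong together. With the block the prior degrees of freedom were infinite, so all probes share a single variance. Values on every array are given for genes that pass a test, whose genotypes do not overlap, that have the 3 smallest p of their role or the largest difference of a pair, and for a few chosen after their values were seen (*Pcna*, *Mcm6*, *Top2a*, *Lig1*, *Ccnd3*, *Rrm1* and *Mcm2*). The genes and lists were chosen with earlier results of these data known. The fits were checked on simulated data with independent noise on each array. The simulated data did not hold the shift shared by the arrays numbered 1, so the check does not cover it. Alternatives were quantile normalization, other filters, an offset of 50% of the median, a robust prior with a trend, the replicate block, leaving out arrays and averaging probes, and, chosen after seeing the data, centring of the tested probes. Slide and scan were not used here. Promoter windows are those of RefSeq (GRCm38.p6). Figures were drawn with matplotlib 3.10.9.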

Additional observations from a re-analysis of the deposited data

How the results depend on the processing

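No cell cycle gene passed the adjusted test of limma in any setting run, and *Cdkn1a*, *Ccnd1*, *Plk1* and *Bub1b* had positive differences in all of them. Those of *Plk1* and *Bub1b* were 0.09 and 0.04 without both arrays numbered 1, and ranged from 0.095 to 0.46 and from 0.019 to 0.34 when each array was left out in turn. Over all probes limma called 0 without the block, at unadjusted p under 0.05 in 75 to 1596 probes over the settings without a block. The replicate block called 278 (879 unadjusted). With quantile normalization added to the block it called 0 (939 unadjusted), and with the tested probes centred, chosen after seeing the data, it also called 0 (930 unadjusted); it changed no call of a cell cycle gene. The number of genes at least 1.5-fold apart was 5 of 43 without the signal-to-noise filter, all higher in *Id2*-/-. Besides *Cdkn1a* these were *Pola1*, *Cdk1*, *Rrm1* and *Rbl2*, which were above background on too few arrays to be tested. Without both arrays numbered 1 the number was 0, and without both numbered 2 it was 2 (1 higher and 1 lower). Without both numbered 3 it was 2, both higher, and it was 1 to 3 when each array was left out in turn. In these settings the count was not made over all probes, so it does not show a trait particular to the cell cycle genes.

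The S phase minus mitotic value was -0.18 without both arrays numbered 1 and -0.27 to 0.10 when each array was left out. The median difference of the genes was -0.09 without both arrays numbered 1, 0.21 without both numbered 2 and 0.31 without both numbered 3, and 0.02 to 0.26 when each array was left out. Without both arrays numbered 1 the sign turned for 22 of the 34 genes, to between -0.28 and -0.015. Among the genes named by the rule these were *Ccna2* (-0.017), *Ccnd2* (-0.094), *Ccne1* (-0.15), *Fen1* (-0.16), *Mcm4* (-0.11), *Mcm5* (-0.12), *Rbl1* (-0.12) and *Rrm2* (-0.071). It turned for *Cdk6* (0.033) and *Rfc4* (0.046) without both numbered 2, and for *Cdk6* (0.016), *Rfc4* (0.042) and *Tk1* (0.75) without both numbered 3. With 50% of the median added before log2, *Tk1* had 0.088. When each array was left out in turn the lowest and highest differences were -0.023 and 0.33 for *Ccna2*, -0.016 and 0.43 for *Ccnd2*, -0.045 and 0.33 for *Ccne1*, -0.086 and 0.058 for *Cdk6*, -0.007 and 0.40 for *Fen1*, -0.24 and 0.48 for *Mcm4*, -0.11 and 0.33 for *Mcm5*, -0.44 and 0.44 for *Rbl1*, -0.34 and 0.10 for *Rfc4*, -0.017 and 0.35 for *Rrm2* and -0.88 and 1.13 for *Tk1*. These settings hold fewer arrays, and the cause was not tested. Where 1 array is left out, the array of the same number in the other genotype stays in. The 3 arrays per genotype limit the precision, and the 9 genes with a named but untested probe were above background on too few arrays of either genotype for the test.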
